A study of Mus musculus with 20 samples.

Results

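Axon guidance genes were examined in sorted embryonic mouse skin cells: the ephrins and their Eph receptors, the semaphorins of classes 4 to 7, the plexins, the Slits and their Robo receptors, and the netrins with the receptors Dcc and Unc5. Members were all gene symbols of the RNA count tables that match these families by name, 60 of the 23432 symbols, of which 28 encode ligands and 32 receptors. The count of receptors comprised 9 EphA and 5 EphB receptors, 9 plexins, 4 Robos and 5 netrin receptors. The ligands comprised 5 ephrin-A and 3 ephrin-B genes, 13 semaphorins, 3 Slits and 4 netrins.

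The study compared early epidermis of control and p63-deficient mouse embryos, and 12 RNA libraries in 4 groups of 3 were used here. E13 KO epidermis came from embryos of genotype {delta}Np63 -GFP KI-KO on embryonic day 13, E13 Het epidermis from {delta}Np63 -GFP KI-Het embryos of the same day, E9 Het epidermis from {delta}Np63 -GFP KI-Het embryos on embryonic day 9, and E13 Het dermis from {delta}Np63 -GFP KI-Het embryos on day 13. All 4 groups thus carry the GFP knock-in at the p63 gene, and no group lacks it. Epidermal cells were sorted for GFP and their RNA depleted of ribosomal RNA, whereas dermal cells were sorted for CD140a and their RNA enriched by oligo(dT) selection, and tissue therefore cannot be told apart from library preparation. The labels do not say that the 3 libraries of a group came from separate embryos, so a p-value here speaks to the variation among these libraries alone. The ATAC-seq and ChIP-seq libraries of the series were not analysed here.

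Guidance genes were named for steering axons, and epithelia, mesenchyme and vessels use them as well. Ephrins are ligands held on the cell surface, by a lipid anchor in the A class and by a transmembrane segment in the B class, and they activate Eph receptor tyrosine kinases on touching cells. Most semaphorins of classes 4 to 7 are bound to the membrane and signal through plexins, Slits are secreted ligands of Robo receptors, and netrins are laminin-related secreted proteins read by Dcc, which can attract, and by Unc5 receptors, which repel. Trp63 encodes p63, the transcription factor on which a stratified epidermis depends.

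Between 3373819 and 7777808 counts were assigned to genes in an epidermal library, and between 16931664 and 33386872 in a dermal one, and between 41 and 59 of the 60 members had at least 1 count in a library. Levels are given as CPM, a gene's counts brought to a common library total and scaled by edgeR's TMM factors over the 12 libraries, and in bulk RNA fewer cells of a type and less RNA per cell cannot be told apart. Trp63 stood at 23.1, 25.0 and 20.5 CPM in E13 KO epidermis, at 520, 612 and 455 in E13 Het epidermis, at 279, 218 and 122 in E9 Het epidermis, and at 0.463, 0 and 2.15 in E13 Het dermis. The KO libraries were thus the lowest in Trp63 of the epidermal ones, with a log2 fold change of -4.54 ± 0.28 (SE) against E13 Het epidermis. Krt5, a keratin of basal keratinocytes, averaged 34.5 ± 13.2 CPM in E13 KO epidermis, 1228 ± 172 in E13 Het epidermis, 37.8 ± 9.93 in E9 Het epidermis and 2.24 ± 2.20 in E13 Het dermis (SD, n = 3 each). Pdgfra, which encodes CD140a, ran from 10.9 to 89.5 CPM over the 9 epidermal libraries and from 647 to 1014 CPM in the dermal ones. Summed over 13 markers of neurons and neural tube, levels ran from 59.3 to 202 CPM in E13 KO epidermis, from 1.81 to 39.1 in E13 Het epidermis, from 86.9 to 119 in E9 Het epidermis and from 167 to 231 in E13 Het dermis. Most of the dermal sum came from Gap43 and Stmn2, with means of 141.5 and 30.7 CPM there. Dcx, Neurod1, Neurog1 and Pou4f1 had no counts in dermis.

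Guidance genes of every family were detected in each group, and the families differed in which group was highest. Summed ligand levels ran from 1301 to 1338 CPM in E13 KO epidermis, from 1358 to 1560 in E13 Het epidermis, from 1076 to 1186 in E9 Het epidermis and from 2712 to 3426 in E13 Het dermis. Summed receptor levels ran from 2270 to 2427 CPM in E13 KO epidermis, from 2432 to 2824 in E13 Het epidermis, from 2884 to 3076 in E9 Het epidermis and from 2317 to 3089 in E13 Het dermis. With TMM scaling, ligand sums did not overlap between any 2 of the groups and were highest in dermis. KO and Het epidermis of day 13 lay close, at up to 1338 and from 1358 CPM. Their sums were not recomputed under other scaling, so this gap may depend on it. In dermis Sema5a alone averaged 811 CPM of a mean ligand sum of 2957. Within epidermis, receptor sums were highest on day 9. Netrins and their receptors did not follow the same order. The 4 netrins summed to between 62.4 and 73.8 CPM in E13 KO epidermis, 121 and 159.5 in E13 Het epidermis, 26.4 and 31.6 in E9 Het epidermis, and 391 and 519 in E13 Het dermis. The 5 netrin receptors summed to between 79.3 and 139.7 CPM in E13 KO epidermis, 41.4 and 109 in E13 Het epidermis, 305 and 324 in E9 Het epidermis, and 108 and 124 in E13 Het dermis. Among the epidermal groups, netrin sums were lowest and receptor sums highest on day 9.

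**Figure D1:**
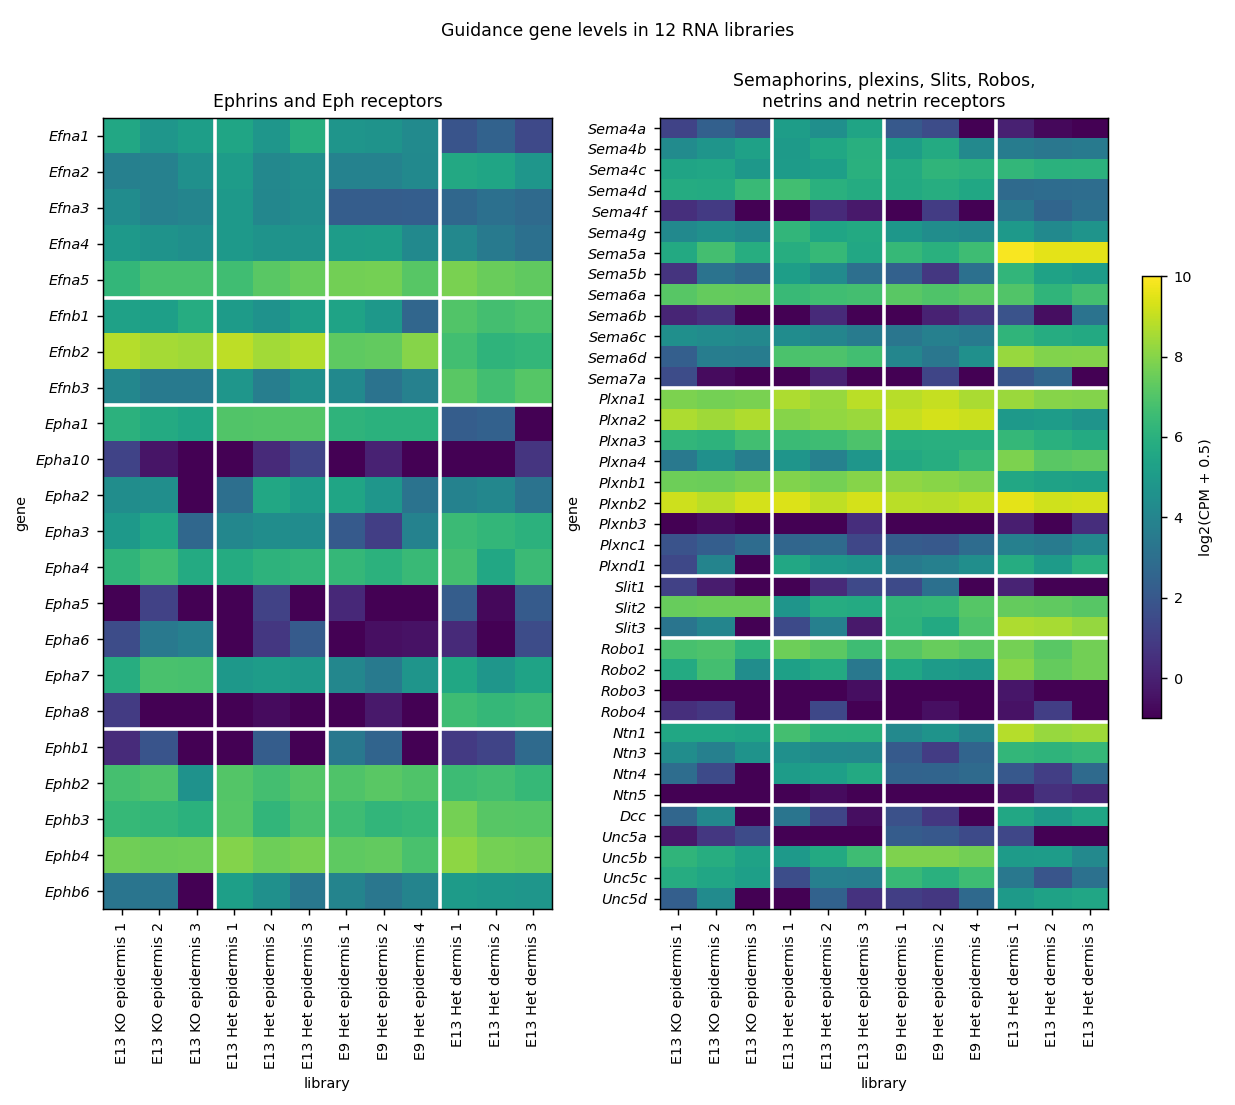
Levels of the 60 guidance genes as log2(CPM + 0.5) in the 12 RNA libraries (columns) with ephrins and Eph receptors on the left and the other families on the right; white lines part families and groups. Sema6d, Sema4a and Ntn4 are bright in E13 Het epidermis and dark in E13 KO epidermis and E9 Het epidermis, and Slit3, Ntn1 and Sema5a are brightest in E13 Het dermis.

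The first comparison asked which guidance genes differ between day 13 epidermis of the {delta}Np63 -GFP KI-KO and KI-Het genotypes. Of 50 members with enough counts to test, 3 rose and 4 fell in E13 KO epidermis against E13 Het epidermis (edgeR quasi-likelihood test, Benjamini-Hochberg adjusted p under 0.05 over 13052 genes), which is 14% of those tested, against 2.2% of all genes tested, 0.835% higher and 1.36% lower. The 3 that rose were the ligand Slit2 and the receptors Unc5c and Epha7, and the 4 that fell were the ligands Sema6d and Sema4g and the receptors Epha1 and Plxna1. KO and Het libraries did not overlap for 16 of the 50 members, 32% of them, against 20% of all genes. The members' median log2 fold change was -0.20, against 0.03 over all genes tested.

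Sema6d (chr2:124089943-124667789, GRCm38.p6), a transmembrane semaphorin that binds Plxna1, stood at 4.55, 12.2 and 11.7 CPM in E13 KO epidermis, at 117, 121 and 102 in E13 Het epidermis, at 16.0, 9.88 and 22.6 in E9 Het epidermis, and at 313, 240.1 and 249.7 in E13 Het dermis. The KO and the day 9 libraries overlapped, and E13 Het epidermis lay far above both. Sema6d fell 12.1-fold in KO against Het epidermis on day 13, a log2 fold change of -3.59 ± 0.42 (edgeR adjusted p = 0.000245). Plxna1 (chr6:89316313-89362613), a plexin that also serves neuropilin-bound semaphorins, stood at 229.8, 207 and 223 CPM in E13 KO epidermis, at 395, 318 and 466 in E13 Het epidermis, at 450.4, 516 and 392 in E9 Het epidermis, and at 325, 253 and 246 in E13 Het dermis. All 3 KO libraries were below all others, in epidermis and dermis. The fall against E13 Het epidermis was -0.85 ± 0.16 on the log2 scale (edgeR adjusted p = 0.0121), and without KO replicate 2 the adjusted p was 0.0525. Both genes of this ligand and receptor pair thus fell in KO epidermis.

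Sema4g (chr19:44988743-45003397), a class 4 transmembrane semaphorin, stood at 17.9, 22.3 and 18.4 CPM in E13 KO epidermis, at 75.1, 43.7 and 51.1 in E13 Het epidermis, at 28.1, 20.6 and 17.9 in E9 Het epidermis, and at 30.0, 18.1 and 25.7 in E13 Het dermis. The E13 Het epidermis was the high group and the other 3 overlapped one another. Its fall in KO epidermis was -1.55 ± 0.35 (edgeR adjusted p = 0.034), a call lost without any one of KO replicates 1, 2 or 3 or Het replicates 1 or 3, with adjusted p up to 0.148 and a log2 fold change of -1.28 at its smallest. Epha1 (chr6:42358487-42373314), an Eph receptor for A-class ephrins, stood at 65.7, 51.7 and 43.5 CPM in E13 KO epidermis, at 129, 133 and 133 in E13 Het epidermis, at 71.4, 64.4 and 64.2 in E9 Het epidermis, and at 4.22, 4.83 and 0 in E13 Het dermis. The E13 Het libraries agreed closely and lay above the others, and the dermal libraries lay near 0. Epha1 fell 2.48-fold in KO against Het epidermis, a log2 fold change of -1.31 ± 0.21 (edgeR adjusted p = 0.00309). Fitted with the dermal libraries included, the adjusted p for Epha1 was 0.644, and the Epha1 locus overlaps the counted genes Zyx and 2010310C07Rik. Summed epidermal markers other than Trp63 ran from 2720 to 3692 CPM in E13 KO epidermis and from 3587 to 4713 CPM in E13 Het epidermis. They ran from 1903 to 2113 CPM in E9 Het epidermis. These markers moved in opposite directions between the day 13 groups. Of the 9 tested, Krt5 and Itga6 were lower in KO epidermis (log2 fold changes -5.17 and -0.96, edgeR adjusted p = 9.36e-06 and 0.0257). Epcam was higher (log2 fold change 1.19, edgeR adjusted p = 0.00031). Krt8 stood at 1057, 675 and 825 CPM in E13 KO epidermis and at 67.6, 21.8 and 628 in E13 Het epidermis, and did not pass. Het replicate 3 was thus far above the other Het libraries in Krt8. The sum thus gives no single direction, and the part of these markers in the falls was not tested.

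Slit2 (chr5:47981291-48307735), a secreted ligand of Robo1 and Robo2, stood at 174, 187 and 182 CPM in E13 KO epidermis, at 26.2, 56.4 and 52.0 in E13 Het epidermis, at 74.3, 79.7 and 136 in E9 Het epidermis, and at 169.6, 159 and 142 in E13 Het dermis. Slit2 was lowest in E13 Het epidermis, and the KO libraries were above every other library. Slit2 rose 3.99-fold in KO against Het epidermis, a log2 fold change of 2.0 ± 0.29 (edgeR adjusted p = 0.00148). Its receptor genes Robo1 and Robo2 did not pass the test. Robo1, the Robo gene with the most CPM over the 12 libraries, stood at 112, 120.3 and 70.7 CPM in E13 KO epidermis, at 191, 148 and 94.3 in E13 Het epidermis, at 137, 176 and 148 in E9 Het epidermis, and at 205, 144 and 200.1 in E13 Het dermis. Its KO libraries overlapped those of E13 Het epidermis and lay below those of the other two groups.

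Unc5c (chr3:141465564-141834924), a repulsive netrin receptor, stood at 56.0, 44.8 and 36.5 CPM in E13 KO epidermis, at 2.49, 13.4 and 12.6 in E13 Het epidermis, at 83.9, 62.4 and 95.5 in E9 Het epidermis, and at 10.1, 3.19 and 8.07 in E13 Het dermis. KO libraries lay between the low day 13 Het and the high day 9 Het libraries and overlapped neither. Unc5c rose 4.73-fold against E13 Het epidermis, a log2 fold change of 2.24 ± 0.46 (edgeR adjusted p = 0.0185). The adjusted p was 0.0763 without KO replicate 1 and 0.0886 with those 2 groups fitted alone. Epha7 (chr4:28813066-28967503), a receptor for A-class ephrins, stood at 58.1, 115 and 109 CPM in E13 KO epidermis, at 28.3, 33.8 and 29.7 in E13 Het epidermis, at 16.8, 10.9 and 26.5 in E9 Het epidermis, and at 46.9, 27.2 and 40.9 in E13 Het dermis. KO libraries were above all others. Its log2 fold change was 1.61 ± 0.36 (edgeR adjusted p = 0.0293), and the call was lost without any one of KO replicates 2 or 3 or Het replicates 1, 2 or 3, with adjusted p up to 0.127 and a log2 fold change of 1.45 at its smallest. The summed neuron and neural tube markers were also higher in KO than in Het epidermis on day 13, by the ranges given above, with a median log2 fold change of 1.75. Of the 9 tested, Map2 alone passed, at 76.5, 123 and 44.8 CPM in E13 KO epidermis, against 1.81, 12.7 and 15.5 CPM in E13 Het epidermis (log2 fold change 2.99, edgeR adjusted p = 0.0408). Without Map2 the sums overlapped, at 14.5 to 79.4 CPM in E13 KO epidermis and 0 to 26.3 CPM in E13 Het epidermis. Summed dermal mesenchyme markers ran from 963 to 1983 CPM in E13 KO epidermis and from 244 to 1256 CPM in E13 Het epidermis. None of the 8 tested passed, with a median log2 fold change of 0.53. Col3a1 averaged 790 CPM in E13 KO and 177 CPM in E13 Het epidermis, while Dcn went the other way, at 24.65 and 55.2 CPM. Markers of melanocytes, neural crest and Schwann cells summed to between 239 and 267 CPM in E13 KO epidermis and 132 and 196 CPM in E13 Het epidermis. Their part in the rises of Slit2, Unc5c and Epha7 was not tested.

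**Figure D2:**
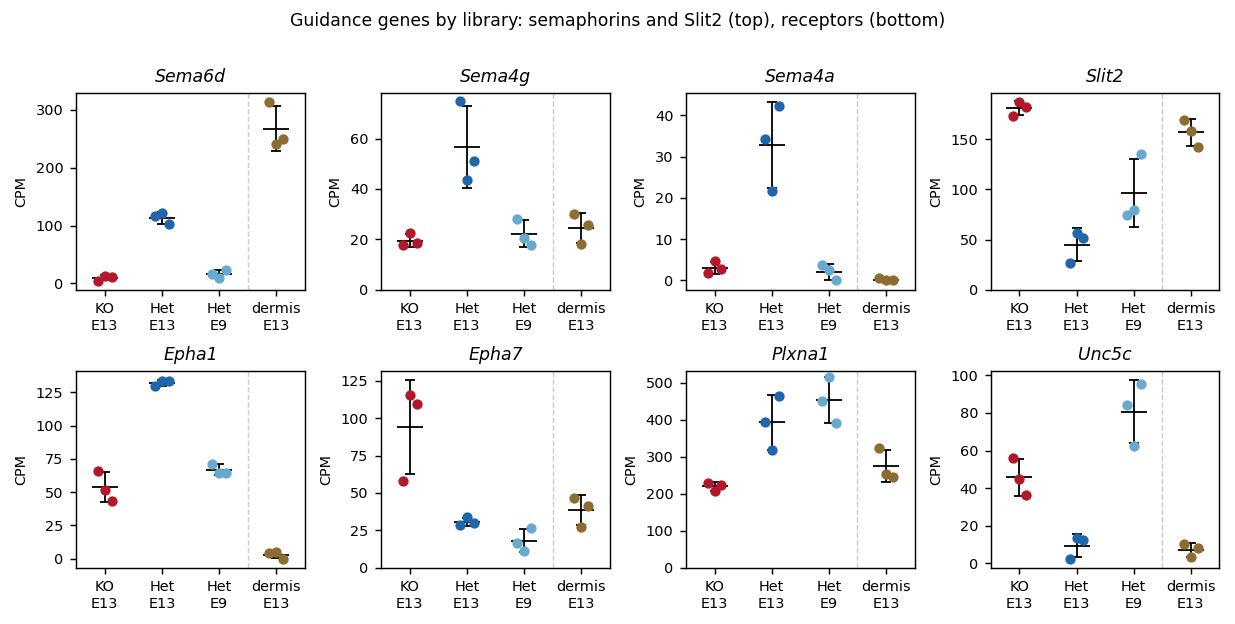
CPM by library for 4 ligand genes (top) and 4 receptor genes (bottom), chosen from those called in an epidermal comparison; points are libraries, horizontal bars the mean and whiskers 1 SD (n = 3), and the dashed line sets off dermis. Sema6d falls to between 4.55 and 12.2 CPM in E13 KO epidermis, against 102 to 121 in E13 Het epidermis, while Slit2 stands at 174 to 187 CPM in E13 KO epidermis, against 26.2 to 56.4 in E13 Het epidermis.

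Further members came close to the threshold and are named after their values were seen. Ntn4, a netrin of basement membranes, stood at 7.13, 2.29 and 0 CPM in E13 KO epidermis and at 33.2, 36.7 and 51.5 in E13 Het epidermis, without overlap (log2 fold change -3.66 ± 0.90, edgeR adjusted p = 0.0503). Sema6a, a class 6 semaphorin, stood at 139.5, 168 and 162 CPM in E13 KO epidermis and at 87.8, 97.3 and 104 in E13 Het epidermis (log2 fold change 0.69 ± 0.17, edgeR adjusted p = 0.0509). Sema4a, a class 4 semaphorin, stood at 1.82, 4.71 and 2.85 CPM in E13 KO epidermis and at 34.4, 21.6 and 42.3 in E13 Het epidermis (log2 fold change -3.39 ± 0.96, edgeR adjusted p = 0.102). Among these, the KO and Het libraries did not overlap, and none passed the test.

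Promoter sequences are shown for the 3 members whose call between KO and Het epidermis held without any 1 library of these day 13 groups. This was so for none of the other 4 called members. No day 9 library was left out for this comparison. They are RefSeq sequences of build GRCm38.p6, from 250 bases before a transcript start to 50 after it, written 5′ to 3′ on the gene's strand, and capitals mark GC boxes (GGGCGG) and grainyhead-like motifs (AACNGGTT) on either strand. Sema6d has 2 starts in the table, at chr2:124089719-124090018 and chr2:124653331-124653630 on the plus strand, Epha1 has chr6:42373219-42373518 on the minus strand, and Slit2 has chr5:47982905-47983204 on the plus strand.
Sema6d first start: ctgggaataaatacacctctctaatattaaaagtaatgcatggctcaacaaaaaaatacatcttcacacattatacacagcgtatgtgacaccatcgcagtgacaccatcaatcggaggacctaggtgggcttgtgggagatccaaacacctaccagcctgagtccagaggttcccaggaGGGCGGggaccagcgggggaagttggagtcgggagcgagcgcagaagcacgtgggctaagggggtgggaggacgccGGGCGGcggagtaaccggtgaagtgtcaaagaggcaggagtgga
Sema6d second start: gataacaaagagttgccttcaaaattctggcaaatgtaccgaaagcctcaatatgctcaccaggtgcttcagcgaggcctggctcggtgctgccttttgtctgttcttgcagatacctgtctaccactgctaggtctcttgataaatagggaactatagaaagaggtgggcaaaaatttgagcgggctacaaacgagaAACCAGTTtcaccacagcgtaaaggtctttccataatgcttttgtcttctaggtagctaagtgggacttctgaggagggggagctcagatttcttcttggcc
Epha1: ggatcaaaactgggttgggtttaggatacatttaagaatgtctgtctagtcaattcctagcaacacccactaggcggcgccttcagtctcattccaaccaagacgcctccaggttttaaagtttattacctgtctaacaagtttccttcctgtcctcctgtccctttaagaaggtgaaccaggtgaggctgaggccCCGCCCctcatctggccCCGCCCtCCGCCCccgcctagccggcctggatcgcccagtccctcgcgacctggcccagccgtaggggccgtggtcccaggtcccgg
Slit2: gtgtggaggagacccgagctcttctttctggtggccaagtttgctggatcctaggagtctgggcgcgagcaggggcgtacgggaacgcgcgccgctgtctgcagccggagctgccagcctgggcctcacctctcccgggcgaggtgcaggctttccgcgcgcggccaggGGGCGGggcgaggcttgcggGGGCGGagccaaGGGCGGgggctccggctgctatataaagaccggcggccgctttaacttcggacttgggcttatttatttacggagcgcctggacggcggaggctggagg
The first Sema6d promoter holds 2 GC boxes and the second 1 grainyhead-like motif, and the Epha1 and Slit2 promoters hold 3 GC boxes each. Promoters were matched for 52 of the 60 members, 68 promoters in all. A GC box was present in 48 of these, against 35.7% of all 32851 RefSeq promoters, and a grainyhead-like motif in 2, against 2.09%. The AP-2 motif (GCCNNNGGC) was present in 18 of the 68, against 16.6% of all promoters. The AP-1 motif (TGANTCA) was present in 3 of the 68, against 7.81% of all promoters. The p53 family half-site was present in 5 of the 68, against 8.36% of all promoters, and in none of those shown. Member promoters had a median GC content of 64.5%, against 52.7% over all promoters, and a match describes these letters only.

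The second comparison followed Het epidermis between the 2 stages. Of the 50 members tested, 8 rose and 5 fell in E13 Het epidermis against E9 Het epidermis, 26% of them, against 7.29% of all genes tested, 4.77% higher and 2.53% lower. Of the 24 ligands tested 7 rose and 1 fell, and of the 26 receptors tested 1 rose and 4 fell. The median log2 fold change of the members was 0.36, against -0.00193 over all genes. The libraries of the stages did not overlap for 23 members, 46% of those tested, against 29% of all genes. Dermal mesenchyme markers summed to between 244 and 1256 CPM in E13 Het epidermis and between 149 and 206 CPM in E9 Het epidermis, with 1 of 8 tested, Dcn, higher and a median log2 fold change of 2.57, and Lum, Dcn, Twist2 and Dpt were at 0 in E9 Het epidermis. None of the 9 neuron and neural tube markers tested passed, with a median log2 fold change of -2.33. The part of these markers in the members' changes was not tested.

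Of the netrins and their receptors, Ntn1 and Ntn3 rose between the stages and Unc5b and Unc5c fell. Ntn1 (chr11:68209364-68386826), a secreted ligand of Dcc and Unc5 receptors, stood at 46.3, 46.7 and 42.2 CPM in E13 KO epidermis, at 104, 66.0 and 64.3 in E13 Het epidermis, at 17.5, 24.9 and 14.7 in E9 Het epidermis, and at 437, 318 and 349 in E13 Het dermis. The 4 groups did not overlap, with dermis highest and E9 Het epidermis lowest. Ntn1 rose 4.12-fold in E13 against E9 Het epidermis, a log2 fold change of 2.04 ± 0.31 (edgeR adjusted p = 0.000887). Ntn3, a relative of Ntn1 whose locus overlaps Tbc1d24, stood at 20.3, 13.4 and 24.6 CPM in E13 KO epidermis, at 22.4, 18.1 and 17.2 in E13 Het epidermis, at 3.83, 1.41 and 5.29 in E9 Het epidermis, and at 77.9, 70.2 and 80.3 in E13 Het dermis. Both day 13 epidermal groups lay above day 9 and below dermis. Its rise between the stages was 2.46 ± 0.66 on the log2 scale (edgeR adjusted p = 0.0342), a call lost without any one of E13 replicates 1, 2 or 3 or E9 replicates 1 or 2, with adjusted p up to 0.123 and a log2 fold change of 2.10 at its smallest, and the adjusted p with the 2 groups alone was 0.0696. Ntn4 stood at 5.11, 5.29 and 6.44 CPM in E9 Het epidermis, below the E13 Het values given above, and did not pass (log2 fold change 2.86, edgeR adjusted p = 0.0634).

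Unc5c fell 8.34-fold in E13 against E9 Het epidermis, a log2 fold change of -3.06 ± 0.47 (edgeR adjusted p = 0.000918). Unc5b (chr10:60762594-60831581), a netrin receptor also known from vessel sprouts, stood at 72.4, 57.6 and 40.4 CPM in E13 KO epidermis, at 29.6, 50.1 and 95.3 in E13 Het epidermis, at 232, 237 and 203 in E9 Het epidermis, and at 32.5, 33.2 and 17.7 in E13 Het dermis. Day 9 stood apart above the 3 day 13 groups, among which E13 Het epidermis overlapped the other two. Its log2 fold change was -1.93 ± 0.35 (edgeR adjusted p = 0.00451). Unc5a, a further Unc5 receptor whose locus overlaps Hk3, had 0 counts in the 3 E13 Het epidermis libraries and 59 counts in the 3 E9 ones, at least 21.2-fold lower with 3 counts over the E13 group as the bound, and did not pass the test (edgeR adjusted p = 0.0945).

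Of the semaphorins, Sema6d, Sema4a and Sema4g rose between the stages. Sema6d rose 7.07-fold, a log2 fold change of 2.82 ± 0.40 (edgeR adjusted p = 0.000471). Sema4a (chr3:88435959-88461182) stood at 3.69, 2.47 and 0 CPM in E9 Het epidermis and at 0.521, 0.0863 and 0 CPM in E13 Het dermis, so that E13 Het epidermis, with its values given above, was the one group whose libraries passed 5 CPM. Its rise against E9 was 3.96 ± 0.99 (edgeR adjusted p = 0.0258), lost without E13 replicate 3 or E9 replicate 2, with adjusted p up to 0.124 and a log2 fold change of 3.41 at its smallest, and its adjusted p with the dermal libraries in the fit was 0.0767. Sema4g rose by 1.36 ± 0.35 (edgeR adjusted p = 0.0297), lost without any one of E13 replicates 1 or 3 or E9 replicates 1, 2 or 4, with adjusted p up to 0.123 and a log2 fold change of 1.07 at its smallest. Slit2 fell by 1.09 ± 0.28 on the log2 scale (edgeR adjusted p = 0.0307), lost without E13 replicate 1 or E9 replicate 4, with adjusted p up to 0.157 and a log2 fold change of -0.77 at its smallest, and its adjusted p with the 2 groups alone was 0.0774.

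Among the ephrins, Efnb2 and Efna3 rose between the stages, and among their receptors Epha1 did. Efnb2 (chr8:8617235-8661242), a transmembrane ligand of Ephb4, stood at 441, 369 and 347 CPM in E13 KO epidermis, at 484, 354 and 423 in E13 Het epidermis, at 153, 162 and 253 in E9 Het epidermis, and at 102, 71.1 and 76.6 in E13 Het dermis. Both day 13 epidermal groups were high and overlapped, day 9 was intermediate, and dermis was lowest. Efnb2 rose 2.24-fold in E13 against E9 Het epidermis, a log2 fold change of 1.16 ± 0.20 (edgeR adjusted p = 0.00196). Ephb4, the EphB gene with the most CPM, stood at 194, 186 and 189 CPM in E13 KO epidermis, at 247, 190.3 and 216 in E13 Het epidermis, at 153, 164 and 114 in E9 Het epidermis, and at 279, 205 and 194 in E13 Het dermis. Its E13 and E9 Het epidermis libraries did not overlap, and it did not pass (log2 fold change 0.61, edgeR adjusted p = 0.0546).

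Efna3, a lipid-anchored ephrin, stood at 19.9, 13.6 and 15.8 CPM in E13 KO epidermis, at 30.3, 16.3 and 20.3 in E13 Het epidermis, at 4.26, 4.23 and 4.37 in E9 Het epidermis, and at 5.96, 7.76 and 6.46 in E13 Het dermis. Both day 13 epidermal groups lay above day 9 and dermis. Its rise between the stages was 2.38 ± 0.58 (edgeR adjusted p = 0.0225), lost without any one of E13 replicates 1 or 3 or E9 replicates 1 or 2, with adjusted p up to 0.0795 and a log2 fold change of 2.07 at its smallest. Epha1 rose 1.99-fold, a log2 fold change of 0.99 ± 0.21 (edgeR adjusted p = 0.00858), and its adjusted p with the dermal libraries in the fit was 0.596.

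Of the A-class plexins, 2 fell. Plxna2 (chr1:194619791-194816869), a receptor of Sema6a, stood at 401, 345 and 418 CPM in E13 KO epidermis, at 252, 294 and 323 in E13 Het epidermis, at 519, 620.0 and 556 in E9 Het epidermis, and at 29.7, 33.8 and 25.4 in E13 Het dermis. The 4 groups did not overlap. Its log2 fold change between the stages was -0.96 ± 0.14 (edgeR adjusted p = 0.000732). Plxna4, a receptor for neuropilin-bound and class 6 semaphorins, stood at 10.3, 22.6 and 12.7 CPM in E13 KO epidermis, at 26.5, 13.7 and 26.6 in E13 Het epidermis, at 49.8, 57.7 and 82.8 in E9 Het epidermis, and at 228, 144 and 157 in E13 Het dermis. Both day 13 epidermal groups overlapped and lay below day 9. Its fall was -1.50 ± 0.41 (edgeR adjusted p = 0.0371), lost without any one of E13 replicates 2 or 3 or E9 replicates 1, 2 or 4, with adjusted p up to 0.157 and a log2 fold change of -1.24 at its smallest. The other tested A-class plexins, Plxna1 and Plxna3, did not pass.

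**Figure D3:**
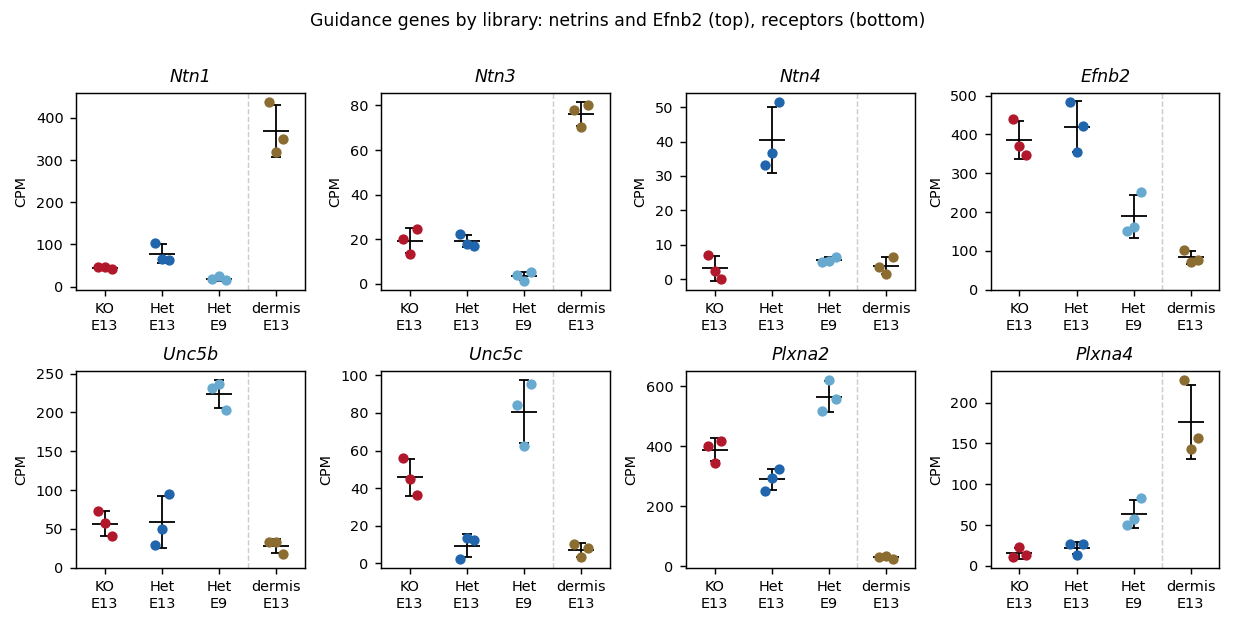
CPM by library for 3 netrins and Efnb2 (top) and for 2 netrin receptors and 2 plexins (bottom); points are libraries, horizontal bars the mean and whiskers 1 SD (n = 3), and the dashed line sets off dermis. Unc5b stands at 29.6 to 95.3 CPM in E13 Het epidermis, against 203 to 237 in E9 Het epidermis, and Efnb2 at 354 to 484 CPM in E13 Het epidermis, against 153 to 253 in E9 Het epidermis.

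Set against E9 Het epidermis, E13 KO epidermis had 4 members higher and 5 lower of the 50 tested, 18% of them, against 7.67% of all genes tested, 4.62% higher and 3.05% lower. With library totals and no scaling the split was 6 higher and 5 lower. This comparison shares its libraries with the first and second, so the values stand side by side and no overlap is read from them. Those that rose were Efnb2, Ntn1, Ntn3 and Epha7, and those that fell were Efna5, Plxna1, Plxna2, Plxna4 and Unc5b. KO and day 9 libraries did not overlap for 23 members, 46% of those tested, against 32% of all genes. Dermal mesenchyme markers summed to between 963 and 1983 CPM in E13 KO epidermis and between 149 and 206 CPM in E9 Het epidermis, with 2 of 8 tested, Dcn and Col3a1, higher and a median log2 fold change of 4.43. Of 3 tested markers of melanocytes, neural crest and Schwann cells, Erbb3 was higher (log2 fold change 0.92, edgeR adjusted p = 0.006), and the part of these markers in the members' changes was not tested.

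Of the 7 members called between KO and Het epidermis on day 13, Epha7 and Plxna1 also differed from day 9. Epha7 was 5.23-fold higher in KO than in E9 Het epidermis (log2 fold change 2.39 ± 0.37, edgeR adjusted p = 0.00104), and Plxna1 was 2.07-fold lower (log2 fold change -1.05 ± 0.17, edgeR adjusted p = 0.00123). The other 5 did not pass against day 9. Their log2 fold changes and edgeR adjusted p-values were -0.77 and 0.287 for Sema6d, -0.32 and 0.439 for Epha1, -0.19 and 0.845 for Sema4g, 0.91 and 0.0643 for Slit2, and -0.82 and 0.31 for Unc5c. A p that misses the threshold does not show that KO epidermis and day 9 epidermis have the same level.

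The other members called against day 9 had day 13 KO and Het levels that overlapped, apart from Ntn1 and Plxna2. Efnb2 rose by 1.03 ± 0.20 on the log2 scale (edgeR adjusted p = 0.00499). Unc5b had a log2 fold change of -1.98 ± 0.35 (edgeR adjusted p = 0.00392) and Plxna4 one of -2.06 ± 0.41 (edgeR adjusted p = 0.00663). These 3 calls held without any single KO or E9 library. Ntn1 had a log2 fold change of 1.24 ± 0.31 (edgeR adjusted p = 0.0244), lost without any one of KO replicates 1 or 2 or E9 replicates 1 or 4, with adjusted p up to 0.0989 and a log2 fold change of 1.08 at its smallest. Plxna2 had a log2 fold change of -0.55 ± 0.14 (edgeR adjusted p = 0.0303), lost without any one of KO replicates 1 or 2 or E9 replicates 2 or 4, with adjusted p up to 0.158 and a log2 fold change of -0.46 at its smallest. Ntn3 had a log2 fold change of 2.47 ± 0.66 (edgeR adjusted p = 0.0324), lost without any one of KO replicates 1, 2 or 3 or E9 replicates 1 or 2, with adjusted p up to 0.119 and a log2 fold change of 2.10 at its smallest.

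Efna5, a lipid-anchored ephrin and the ephrin-A gene with the most CPM, stood at 78.0, 109.8 and 112 CPM in E13 KO epidermis, at 97.0, 144 and 175 in E13 Het epidermis, at 199, 205 and 141 in E9 Het epidermis, and at 219, 180.2 and 160.0 in E13 Het dermis. KO libraries were below day 9 and dermis and overlapped E13 Het epidermis. Its log2 fold change against day 9 was -0.87 ± 0.24 (edgeR adjusted p = 0.0383), lost without any one of KO replicates 1 or 2 or E9 replicates 1 or 2, with adjusted p up to 0.153 and a log2 fold change of -0.73 at its smallest. Epha6, an Eph receptor of low counts named after its values were seen, had 145 counts in the KO libraries and 2 in the E9 ones, a depth-scaled ratio of 69.2 with an exact 95% counting interval of 18.8 to 577 that covers counting error only, and did not pass the test (edgeR adjusted p = 0.107).

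**Figure D4:**
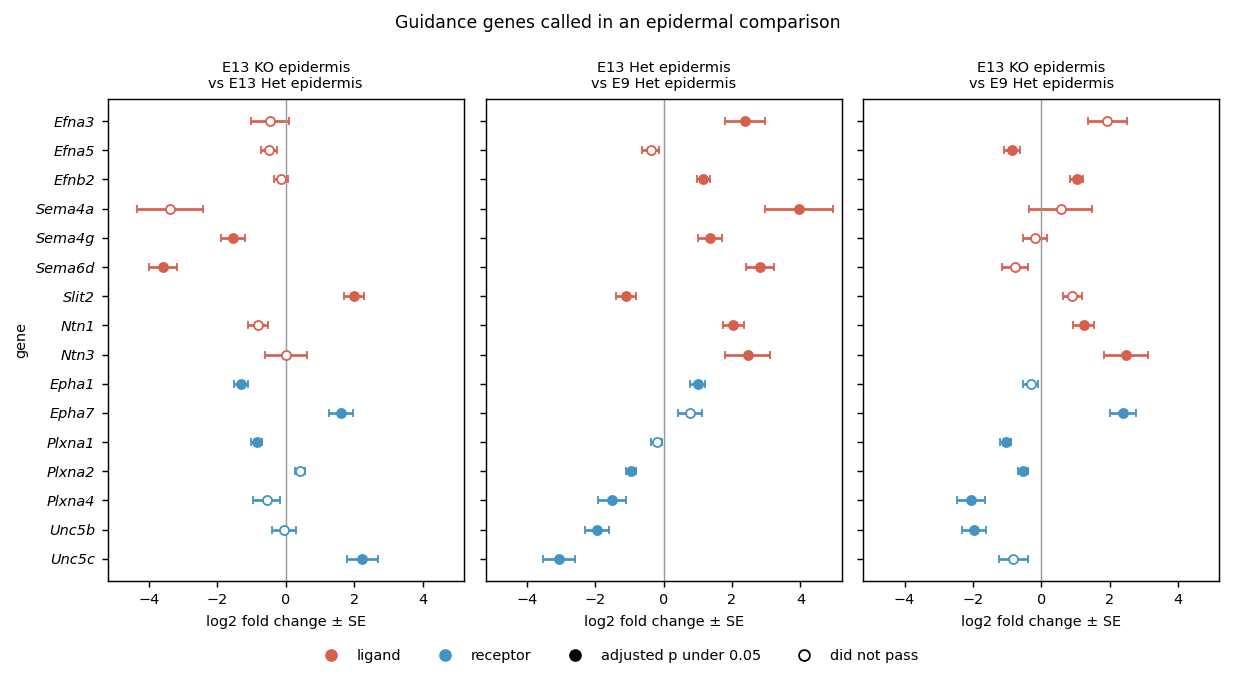
Log2 fold changes with their standard errors for the 16 members called in at least 1 epidermal comparison, in 3 panels that share libraries; ligands are red, receptors blue, and filled points passed the test. Sema6d lies at -3.59 for E13 KO against E13 Het epidermis, at 2.82 for E13 Het against E9 Het epidermis, and at -0.77, unfilled, for E13 KO against E9 Het epidermis.

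The last comparison set E13 Het epidermis against E13 Het dermis, in a fit of these 6 libraries. Of 51 members tested, 11 were higher and 16 lower in epidermis, 52.9% of them, against 34.7% of 12975 genes tested, 16.5% higher and 18.2% lower. With library totals and no scaling the split was 16 higher and 15 lower, and the median log2 fold change of all genes was 0.30 there, against -0.13 with TMM scaling, so that directions here are relative to the scaling. The epidermis and dermis libraries did not overlap for 32 members, 62.7% of those tested, against 56% of all genes. Of 24 ligands, 8 were higher and 10 lower, and of 27 receptors, 3 were higher and 6 lower. Summed dermal mesenchyme markers, Pdgfra left out, ran from 244 to 1256 CPM in E13 Het epidermis and from 30110 to 40630 CPM in E13 Het dermis, and summed epidermal markers, Trp63 left out, ran from 3587 to 4713 CPM in E13 Het epidermis and from 64.2 to 81.3 CPM in E13 Het dermis.

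Sema4d and its receptor Plxnb1 were both higher in epidermis. Sema4d, a class 4 semaphorin, stood at 54.0, 52.7 and 88.1 CPM in E13 KO epidermis, at 102, 62.1 and 54.2 in E13 Het epidermis, at 50.3, 57.3 and 45.8 in E9 Het epidermis, and at 6.48, 6.90 and 7.21 in E13 Het dermis. Plxnb1 stood at 189, 186 and 213 CPM in E13 KO epidermis, at 239.8, 207 and 255 in E13 Het epidermis, at 289, 264 and 235 in E9 Het epidermis, and at 47.7, 40.1 and 37.8 in E13 Het dermis. Every epidermal library was above every dermal one for both genes. The log2 fold changes against dermis were 3.37 ± 0.32 for Sema4d (edgeR adjusted p = 0.000192) and 2.46 ± 0.17 for Plxnb1 (edgeR adjusted p = 4.98e-05). Plxna2 was 9.63-fold higher in epidermis (log2 fold change 3.27 ± 0.20, edgeR adjusted p = 3.5e-05). Efnb2 was 4.97-fold higher in epidermis (log2 fold change 2.31 ± 0.19, edgeR adjusted p = 9.14e-05). Plxnb2, a further receptor of class 4 semaphorins and the plexin gene with the most CPM, stood at 565, 464 and 623 CPM in E13 KO epidermis, at 694, 492 and 624 in E13 Het epidermis, at 470.0, 455 and 509 in E9 Het epidermis, and at 739, 588 and 633 in E13 Het dermis, and its epidermis and dermis libraries of day 13 overlapped.

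Among the ligands lower in epidermis, Sema5a, a semaphorin with thrombospondin repeats, stood at 50.9, 106 and 57.0 CPM in E13 KO epidermis, at 58.1, 82.2 and 47.6 in E13 Het epidermis, at 82.3, 63.1 and 95.5 in E9 Het epidermis, and at 939, 743 and 750.5 in E13 Het dermis. Dermis stood far above the 3 epidermal groups, which overlapped, and the log2 fold change of E13 Het epidermis over dermis was -3.71 ± 0.25 (edgeR adjusted p = 4e-05). Ntn1 was 4.81-fold lower in epidermis (log2 fold change -2.27 ± 0.22, edgeR adjusted p = 0.000211) and Ntn3 4.04-fold lower (log2 fold change -2.01 ± 0.23, edgeR adjusted p = 0.000413). The netrins thus split, since Ntn4 was 10.1-fold higher in epidermis (log2 fold change 3.34 ± 0.56, edgeR adjusted p = 0.0026).

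The B-class ephrins split as well. Efnb1, an X-linked transmembrane ephrin, stood at 38.2, 36.9 and 55.7 CPM in E13 KO epidermis, at 32.1, 23.8 and 36.5 in E13 Het epidermis, at 40.8, 28.9 and 5.75 in E9 Het epidermis, and at 127, 104 and 118 in E13 Het dermis. Efnb3, its autosomal relative, stood at 16.7, 10.8 and 10.9 CPM in E13 KO epidermis, at 26.7, 12.4 and 21.5 in E13 Het epidermis, at 17.9, 8.64 and 13.6 in E9 Het epidermis, and at 145, 102 and 137 in E13 Het dermis. Both were higher in every dermal library than in any epidermal one, the reverse of Efnb2. Against dermis, E13 Het epidermis had a log2 fold change of -1.95 ± 0.22 for Efnb1 (edgeR adjusted p = 0.000441) and of -2.70 ± 0.30 for Efnb3 (edgeR adjusted p = 0.000398).

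Among receptors, Epha8, an Eph receptor for A-class ephrins, was read almost only in dermis, at 1.37, 0 and 0 CPM in E13 KO epidermis, at 0, 0.124 and 0 in E13 Het epidermis, at 0, 0.353 and 0 in E9 Het epidermis, and at 96.7, 78.6 and 89.7 in E13 Het dermis. E13 Het epidermis had 1 count in all against 5082 in dermis, a depth-scaled ratio of 0.000608 with an exact 95% counting interval of 1.54e-05 to 0.00339 (edgeR adjusted p = 2.08e-05). Epha3, a receptor of the same class, stood at 30.2, 46.5 and 5.96 CPM in E13 KO epidermis, at 16.7, 20.4 and 19.8 in E13 Het epidermis, at 3.83, 1.59 and 14.3 in E9 Het epidermis, and at 90.5, 76.9 and 67.2 in E13 Het dermis. Dermis was again above every epidermal library, with a log2 fold change of -2.06 ± 0.23 (edgeR adjusted p = 0.000437). Plxna4 was 8.07-fold lower in epidermis (log2 fold change -3.01 ± 0.30, edgeR adjusted p = 0.000236). Epha4, the EphA gene with the most CPM, did not separate the groups, at 72.9, 97.0 and 52.6 CPM in E13 KO epidermis, at 54.1, 69.0 and 75.0 in E13 Het epidermis, at 79.7, 66.5 and 88.1 in E9 Het epidermis, and at 104, 48.5 and 90.0 in E13 Het dermis.

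The other 15 members called against dermis were 7 higher in epidermis, Ntn4 among them, and 8 lower. Higher beside Ntn4, with their log2 fold changes of epidermis over dermis, were Efna1 (3.62), Sema4a (7.32, on 10 dermal counts), Sema4b (2.08), Epha1 (5.50), Sema4g (1.18) and Efna3 (1.69). Lower were Sema6d (-1.26), Sema6c (-1.95), Slit2 (-1.81), Slit3 (-5.97), Robo2 (-2.68), Unc5d (-4.16), Dcc (-3.52) and Sema4f (-4.31). Epha1 had an edgeR adjusted p of 0.0685 with no filter on low counts. Sema4g was lost without dermis replicate 2 or 3 (adjusted p up to 0.0561, log2 fold change 0.92 at its smallest), and Efna3 without Het replicate 3 or dermis replicate 1 or 3 (adjusted p up to 0.0733, log2 fold change 1.41 at its smallest). Unc5d was lost without Het replicate 3 or any one dermis library (adjusted p up to 0.0579, log2 fold change -3.64 at its smallest) and Dcc without Het replicate 2 or any one dermis library (adjusted p up to 0.0894, log2 fold change -2.96 at its smallest). Sema4f was lost without Het replicate 3 or any one dermis library (adjusted p up to 0.136, log2 fold change -3.81 at its smallest). With all 12 libraries in 1 fit the adjusted p was 0.0881 for Dcc and 0.109 for Sema4f. Slit2 and Slit3 were thus both low in E13 Het epidermis beside dermis, and so was their receptor gene Robo2.

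Slit3, the third Slit ligand, stood at 9.26, 15.7 and 0 CPM in E13 KO epidermis, at 2.26, 13.5 and 0.341 in E13 Het epidermis, at 72.8, 50.1 and 122 in E9 Het epidermis, and at 399, 376 and 304 in E13 Het dermis. Dermis was highest and day 9 intermediate, without overlap with either day 13 epidermal group, but Slit3 did not pass between E13 and E9 Het epidermis (log2 fold change -3.88 ± 1.40, edgeR adjusted p = 0.166). Robo2, a Slit receptor, stood at 51.9, 106 and 20.2 CPM in E13 KO epidermis, at 37.3, 52.2 and 10.1 in E13 Het epidermis, at 46.4, 32.1 and 27.4 in E9 Het epidermis, and at 265, 168 and 202 in E13 Het dermis. Dcc, the attractive netrin receptor, stood at 5.77, 16.9 and 0 CPM in E13 KO epidermis, at 9.27, 1.98 and 0.171 in E13 Het epidermis, at 2.84, 1.23 and 0 in E9 Het epidermis, and at 47.6, 31.7 and 44.3 in E13 Het dermis. For both receptors the epidermal groups overlapped and every dermal library lay above them. Efna1, a lipid-anchored ephrin, was instead above dermis in every epidermal library, at 48.4, 27.3 and 35.5 CPM in E13 KO epidermis, at 44.3, 26.6 and 58.8 in E13 Het epidermis, at 25.8, 24.5 and 18.6 in E9 Het epidermis, and at 3.12, 5.0 and 2.23 in E13 Het dermis. Its day 9 libraries lay below those of both day 13 epidermal groups. Sema4b, a class 4 semaphorin, was likewise above dermis in all 9 epidermal libraries, at 17.5 CPM or more, against 11.9 CPM or less in the 3 dermal libraries.

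**Figure D5:**
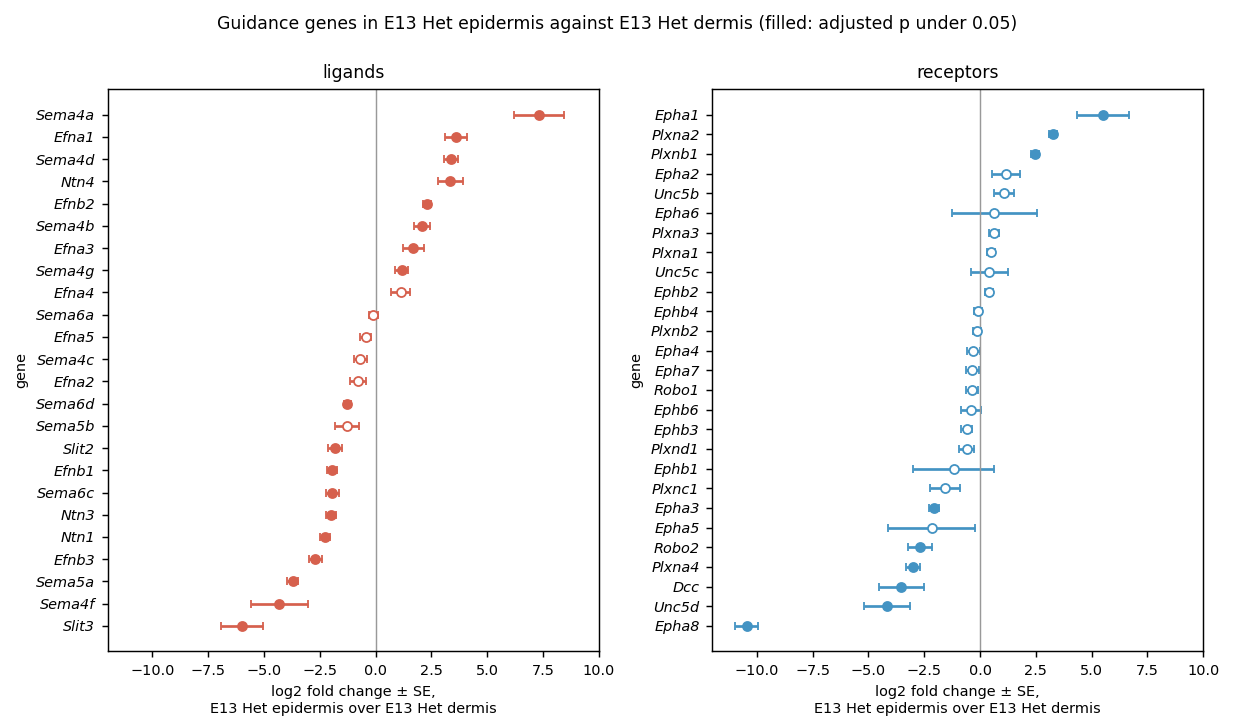
Log2 fold changes of E13 Het epidermis over E13 Het dermis with their standard errors for the 24 ligands (left) and 27 receptors (right) tested; filled points passed the test. The points run from -10.45 for Epha8 to 7.32 for Sema4a, with Ephb4, Plxnb2 and Sema6a near 0.

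Of the 60 members, 32 were called in at least 1 comparison and 21 were tested and called in none. These 21 held all 5 EphB receptors, which bind B-class ephrins. Ephb2 stood at 109, 120.0 and 23.6 CPM in E13 KO epidermis, at 133, 104 and 134 in E13 Het epidermis, at 126, 146 and 125 in E9 Het epidermis, and at 92.9, 99.8 and 81.6 in E13 Het dermis. KO replicate 3 was the one low library. Ephb3 ran from 64.2 to 83.0 CPM in E13 KO epidermis, from 75.3 to 138 CPM in E13 Het epidermis, from 74.6 to 96.5 CPM in E9 Het epidermis, and from 136 to 208 CPM in E13 Het dermis. Plxnd1, an endothelial receptor of class 3 semaphorins, ran from 0 to 14.9 CPM in E13 KO epidermis, from 24.6 to 47.7 CPM in E13 Het epidermis, from 11.2 to 21.4 CPM in E9 Het epidermis, and from 32.5 to 62.0 CPM in E13 Het dermis, and did not pass between KO and Het epidermis (log2 fold change -2.56 ± 1.03, edgeR adjusted p = 0.34). Endothelial markers summed to between 21.3 and 32.1 CPM in E13 KO epidermis and between 0 and 33.3 CPM in E13 Het epidermis, so these groups overlapped in them. The part of these markers in the Plxnd1 levels was not tested. The other members of this kind were Efna2, Efna4, Epha2, Epha4, Epha5, Epha6, Ephb1, Ephb4, Ephb6, Robo1, Slit1, Unc5a, Plxna3, Plxnb2, Plxnc1, Sema4c, Sema5b and Sema6a.

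Members at low level were Epha10, Ntn5, Plxnb3, Robo3, Robo4, Sema6b and Sema7a, the 7 tested in neither fit, whose highest value in any library was 8.61 CPM, for Sema6b in E13 Het dermis. Counts in all 12 libraries were found for 37 members and none was without counts in all. The loci of 12 members overlap another counted gene, and no source used here states whether the counting used strand, so reads of such pairs may not be told apart. For Slit2 and Slit3 the overlapping genes are the microRNA genes Mir218-1 and Mir218-2, and for Sema6d they are 4930517E11Rik and 4930583P06Rik.

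Genes that work with these families were counted from a list of 57, of which 55 were tested. Between E13 KO and E13 Het epidermis 2 rose and 1 fell, 5.45% of those tested, against 2.2% of all genes tested, 0.835% higher and 1.36% lower. Srgap1, a Slit and Robo effector, had a log2 fold change of 1.43 ± 0.31 (edgeR adjusted p = 0.0276), lost without KO replicate 1 or Het replicates 2 or 3 (adjusted p up to 0.208, log2 fold change 1.09 at its smallest). Met, a receptor kinase that pairs with B-class plexins, had a log2 fold change of 0.87 ± 0.21 (edgeR adjusted p = 0.0495), lost without any one KO library or Het replicates 1 or 2 (adjusted p up to 0.18, log2 fold change 0.76 at its smallest). Tiam1, a Rac exchange factor downstream of Eph receptors, had a log2 fold change of -0.58 ± 0.14 (edgeR adjusted p = 0.0387), lost without any one KO library or Het replicates 1 or 3 (adjusted p up to 0.147, log2 fold change -0.53 at its smallest). With those 2 groups fitted alone none of the 3 passed, at adjusted p of 0.067 for Srgap1, 0.082 for Met and 0.095 for Tiam1, and Met had 0.515 with the dermal libraries in the fit.

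Between E13 and E9 Het epidermis 9 partner genes rose and 4 fell, 23.6% of those tested, against 7.29% of all genes tested, 4.77% higher and 2.53% lower. Rgmb and Rgma, ligands of the Dcc relative Neo1, rose together, Rgmb to 171, 167 and 160.2 CPM in E13 Het epidermis, against 17.3, 13.8 and 8.05 CPM in E9 Het epidermis (log2 fold change 3.66 ± 0.30, edgeR adjusted p = 5.31e-06). Rgma had a log2 fold change of 1.64 ± 0.22 (edgeR adjusted p = 0.000354). Flrt1, a relative of Unc5 ligands, and Tiam1 rose by 2.72 ± 0.41 and 0.89 ± 0.14 on the log2 scale (edgeR adjusted p = 0.000752 and 0.000892). Dpysl2, a cytoskeletal effector of semaphorins, and Met had log2 fold changes of -1.92 ± 0.26 and -1.34 ± 0.21 (edgeR adjusted p = 0.000401 and 0.00118). Met had an adjusted p of 0.114 with the dermal libraries in the fit.

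Between E13 KO and E9 Het epidermis 7 partner genes were higher and 5 lower, 21.8% of those tested, against 7.67% of all genes tested, 4.62% higher and 3.05% lower. Rgmb, Flrt1, Rgma and Srgap3 were higher, by log2 fold changes of 3.12, 3.12, 1.44 and 1.42, and Rnd3, a plexin-binding GTPase, and Flrt3, an Unc5 ligand, were lower, by log2 fold changes of -1.60 and -0.85. Flrt3 was lost without KO replicate 1 or E9 replicate 2 (adjusted p up to 0.0537, log2 fold change -0.79 at its smallest). Between E13 Het epidermis and dermis 18 were higher and 13 lower, 56.4% of those tested, against 34.7% of all genes tested, 16.5% higher and 18.2% lower. Nrp1, the neuropilin coreceptor of class 3 semaphorins, had levels of 32.1, 16.5 and 57.1 CPM in E13 Het epidermis, against 1114, 892 and 903 CPM in E13 Het dermis (log2 fold change -4.81 ± 0.45, edgeR adjusted p = 0.000323). The other 5 named by the smallest adjusted p were Tiam1 (3.21), Ptpn13 (3.02), Arhgef12 (1.56), Dpysl3 (-3.71) and Flrt3 (-1.65), with log2 fold changes of epidermis over dermis in brackets.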

How the data were processed

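Each deposited RNA file holds the authors' whole-number read counts per gene symbol for 1 library, with 5 summary lines (20.2% to 63.8% of a library's total) that were left out. Tools and builds named in the submitters' processing notes are TopHat2, Bowtie2, HTSeq and mm10, without versions or roles. No source used here states the strand setting. Members were found by symbol, and all 60 were matched to RefSeq (GRCm38.p6) for coordinates. Counts were tested with edgeR 4.0.16 in R 4.3.3 (filterByExpr, TMM, robust glmQLFit, two-sided glmQLFTest, Benjamini-Hochberg over all genes tested, adjusted p under 0.05), with the 9 epidermal libraries in 1 fit and the 6 E13 Het libraries in another. The procedure was run on simulated counts with large changes and a common spread for all genes, which does not cover the smaller changes reported here. Errors of log2 fold changes are standard errors. Members and lists were chosen with earlier results of these data known.

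Members called in a comparison (at most the 12 with the smallest adjusted p) and the member with the highest mean CPM of each family were given in full, and up to 6 called partner genes per comparison were named by adjusted p. Alternatives were DESeq2 1.42.0, RLE factors, unscaled library totals, no filter, removal of Rn45s and Lars2, the 2 groups alone, all 12 libraries together, and the replicate number as a block. Each library was also left out in turn, for the comparisons that include its group. No transcript lengths were used, so levels are compared within a gene. Bounds against 0 counts use 3 counts over the group, and counting intervals cover counting error only.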

Additional observations from a re-analysis of the deposited data

How the results depend on the processing

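Of 687 values for the 47 calls given in full, recomputed under the alternatives, 602 kept the call, 85 lost it and 0 reversed. DESeq2, RLE factors, unscaled library totals and removal of Rn45s and Lars2 each kept all 47, the fit with no filter 46, all 12 libraries in 1 fit 44, and the 2 groups alone 26 of 29. Same-numbered KO and Het libraries of day 13 epidermis correlated at -0.036, 0.22 and -0.041 in their deviations from the group means. Differently numbered ones ran from -0.133 to 0.108. With 3 libraries a group, these values cannot decide whether the replicate numbers pair the libraries. With the replicate number as a block, 31 of the 47 calls were kept. Under that block the members called higher were 1 for E13 KO against E13 Het epidermis (3 without it), 4 for E13 against E9 Het epidermis (8 without it) and 2 for E13 KO against E9 Het epidermis (4 without it). Those called lower were 2 for E13 against E9 Het epidermis and 2 for E13 KO against E9 Het epidermis (5 without the block in each). No other library has the number of E9 replicate 4, so under the block the comparisons with E9 rest on E9 replicates 1 and 2. The fewer calls there cannot be told apart from this loss, and the share of all genes called under the block was not computed. DESeq2 called 7 members higher in E13 KO than in E9 Het epidermis, and so did the fit without E13 Het replicate 1 and KO replicate 3 together. These libraries had the fewest genes detected of the 12, 10765 and 11275. Without them 42 of the 47 calls were kept. That was 4 of the 7 for E13 KO against E13 Het epidermis and 11 of the 13 for E13 against E9 Het epidermis.

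Leaving out 1 library of the compared groups at a time gave 2 members higher and 3 to 4 lower for E13 KO against E13 Het epidermis. For E13 against E9 Het epidermis it gave 4 to 8 higher and 3 to 4 lower. For E13 KO against E9 Het epidermis it gave 2 to 5 higher and 3 to 5 lower. For E13 Het epidermis against dermis it gave 9 to 14 higher and 13 to 20 lower. Of 282 values for calls, 225 were kept. The depth of the epidermal libraries and 3 libraries a group limit what could be called among members of low count, and a gene that missed the threshold is not shown to be equal.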
